A study of Sus scrofa with 12 samples.

Results

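ATF4 and 9 genes that it is known to switch on (DDIT3, TRIB3, CHAC1, ASNS, PSAT1, PHGDH, SESN2, SLC7A5 and SLC3A2) were followed in pig muscle satellite cells, the stem cells of skeletal muscle, which proliferate and then fuse into myotubes. The 10 genes were taken by their symbol among the 31908 genes for which FPKM was deposited, a unit that divides the reads of a gene by its length and by the size of the library. Of these genes 11636 were tested. All 10 were found and all 10 reached 1 FPKM in each of the 12 libraries. The libraries form 4 groups of 3: cells of an arm named CBP at 60h (labelled as differentiation), control cells at 60h, CBP cells at 0h (labelled as proliferation), and control cells at 0h. The control is named WT in the labels and NC in the table. The protocol names SGC-CBP30, a small molecule that binds a domain shared by the proteins CBP and p300, both of which acetylate histones, and CBP cells are read here as cells given that compound for 48 h in proliferation or 60 h in differentiation. The dose is labelled 5 uM/ml, a unit that is not a plain concentration, and is given as labelled. All 12 libraries carry this treatment text, controls too, and the arms are given as a genotype, so the labels do not settle whether CBP names a compound or a genetic change. The control treatment is not stated, nor whether cells collected at 60h had met the compound before. The cells share 1 cell line label, C3H, usually a name for mouse material, while organism and genome build are pig, and the growth text on all libraries names RPMI medium with fetal bovine serum.

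ATF4 is a transcription factor whose own messenger RNA is translated more when kinases phosphorylate the initiation factor eIF2, as happens when amino acids are short or proteins misfold. It then raises genes for amino acid synthesis, amino acid uptake and its own feedback control, a program named the integrated stress response. Because much of this control acts on translation, the level of the ATF4 transcript and the activity of the ATF4 protein need not move together, and RNA-seq measures the transcript alone.

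At 60h, ATF4 and 8 of its 9 targets were lower in CBP cells than in control cells, and the remaining target, DDIT3, which encodes the proapoptotic factor CHOP, was 2.05-fold higher. The largest falls were in SLC7A5 (2.95-fold), which encodes the light chain of the leucine transporter, and in PSAT1 (2.79-fold), an enzyme of serine synthesis. At 0h, 7 of the 10 were lower, by 1.1-fold to 1.45-fold, and none was higher. Among all 11636 tested genes, 44.7% were called higher and 27% lower at 60h, and 44.2% and 18.1% at 0h. The difference between both effects was tested as an interaction. In it, 24.3% of all tested genes were higher and 26.7% lower, while 9 of the 10 genes passed. ATF4 itself was the exception: its fall was 1.27-fold at 60h and 1.33-fold at 0h, and the difference did not pass.

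**Figure D1:**
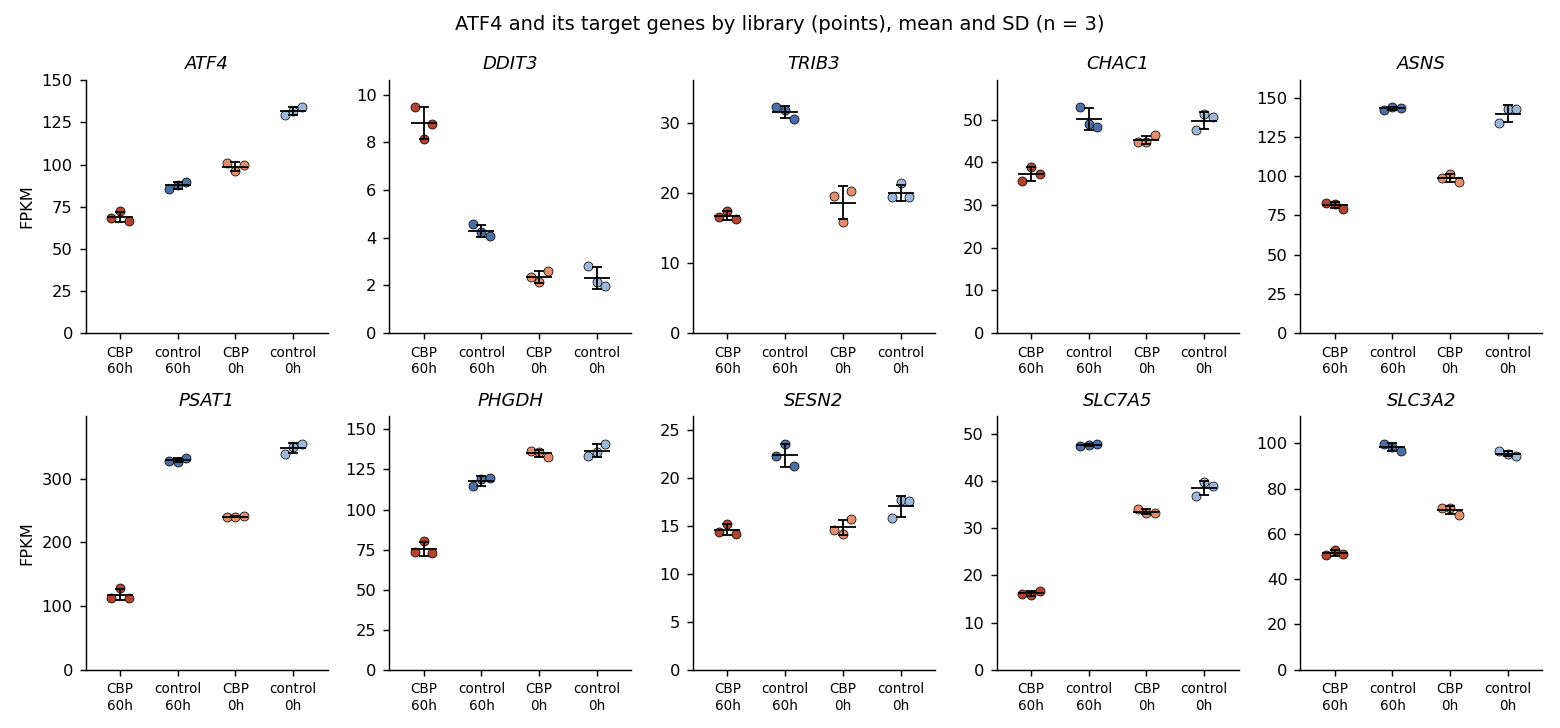
FPKM of ATF4 and its 9 targets (y axis, from 0, own scale for each gene) in each library (points), with the group mean (bar) and SD (n = 3). At 60h the CBP libraries of DDIT3 sit above the control libraries and those of the other 9 genes sit below them, with no overlap. At 0h the groups overlap for DDIT3, TRIB3 and PHGDH. Groups without overlap were also common in a further list of ATF4 partners and targets: 27 of 28 tested genes at 60h and 19 at 0h. The share over all tested genes was not counted. A lack of overlap, here and in the text, therefore describes the libraries and is not a result about these genes.

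The 12 libraries held 16095335 to 19155240 reads, recovered from the steps of the FPKM values, and replicates correlated at r = 0.9931 to 0.9949 over genes. Nothing in the labels says that replicates came from separate cultures, so p-values measure the spread between these libraries, which may be technical. Marker genes moved with the groups. The summed level of 10 of 10 myoblast and myotube markers was 4622 to 5013 FPKM in CBP and 6240 to 6551 FPKM in control cells at 60h, where 3 rose and 6 fell, and 1148 to 1269 FPKM in CBP and 5302 to 5576 FPKM in control cells at 0h, where 10 fell. For 10 fibroblast and fibro-adipogenic markers the sum was 2722 to 2986 FPKM in CBP and 4000 to 4170 FPKM in control cells at 60h, and 646.3 to 661.6 FPKM in CBP and 1179 to 1215 FPKM in control cells at 0h. Without COL1A1, the most abundant of them and left out after its values were seen, the other 9 summed to 1227 to 1349 FPKM in CBP and 1207 to 1230 FPKM in control cells at 60h, and to 357 to 361 FPKM in CBP and 535 to 551 FPKM in control cells at 0h. Of the 9 fibroblast markers tested, 3 rose and 4 fell at 60h (1 and 5 under median-of-ratios scaling), and 0 rose and 7 fell at 0h. The 8 smooth muscle and pericyte markers summed to 96.8 to 102.5 FPKM in CBP and 327 to 344 FPKM in control cells at 60h, and to 70.4 to 74 FPKM in CBP and 233 to 242 FPKM in control cells at 0h. The 8 endothelial markers summed to 4.18 to 4.61 FPKM in CBP and 15.6 to 17.7 FPKM in control cells at 60h, of which ERG, singled out after its values were seen, held 3.07 FPKM in CBP and 14.3 FPKM in control cells, and to 4.58 to 4.72 FPKM in CBP and 5.32 to 5.92 FPKM in control cells at 0h. The 8 immune cell markers summed to 3.11 to 3.41 FPKM in CBP and 1.92 to 2.56 FPKM in control cells at 60h, and to 4.80 to 5.71 FPKM in CBP and 4.53 to 5.09 FPKM in control cells at 0h, with CD3E and LYZ at 0 in all. In each group 7 of these 8 had a mean under 1 FPKM, and only 1 of the 8 was tested. The part of these markers in the results that follow was not tested. In bulk RNA, fewer cells of a type and less RNA per cell cannot be told apart.

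Every test was made with limma on log2(FPKM + 1) over all 11636 genes, with p-values adjusted by Benjamini-Hochberg, and a gene is said to rise or fall if its adjusted p was under 0.05. Changes are given on that log2 scale, and folds are ratios of mean FPKM. For CBP against control at 60h, 1 of the 10 genes rose and 9 fell, while 44.7% of all tested genes rose and 27% fell; the median log2 change was -0.72 over the 10 genes and 0.11 over all tested genes. For CBP against control at 0h, 0 of the 10 rose, 7 fell and 3 did not pass, while 44.2% of all tested genes rose and 18.1% fell; the medians were -0.19 and 0.12. For 60h against 0h in CBP cells, 1 rose, 7 fell and 2 did not pass, beside 31.3% and 41.5% of all tested genes. For 60h against 0h in control cells, 4 rose, 2 fell and 4 did not pass, beside 28.8% and 38% of all tested genes. The medians of the 10 genes were -0.36 in CBP cells and 0.04 in control cells, against -0.06 and -0.05 over all tested genes. In the interaction, which is the CBP effect at 60h minus that at 0h, 1 was higher and 8 were lower, beside 24.3% and 26.7% of all tested genes. The comparisons share libraries, so their values are set side by side and no overlap between them is given.

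A scaling by the median of gene ratios put the median log2 change of all genes at -0.01 at 60h and 0.00 at 0h, in place of 0.11 and 0.12. With it, 3834 genes rose and 4192 fell at 60h, where 5200 rose and 3137 fell in the deposited scale. At 0h, 2987 rose and 3095 fell, where 5148 rose and 2102 fell in the deposited scale. Under that scaling the 10 genes gave 1 rise and 9 falls at 60h, with a median of -0.85, and 0 rises and 9 falls at 0h, with a median of -0.32. With time in control cells, 3957 genes rose and 3737 fell under that scaling and 4382 rose and 3880 fell under TPM scaling, where 3351 rose and 4424 fell in the deposited scale. The 10 genes then gave 6 rises and 2 falls under median-of-ratios, TPM and quantile scaling alike.

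**Figure D2:**
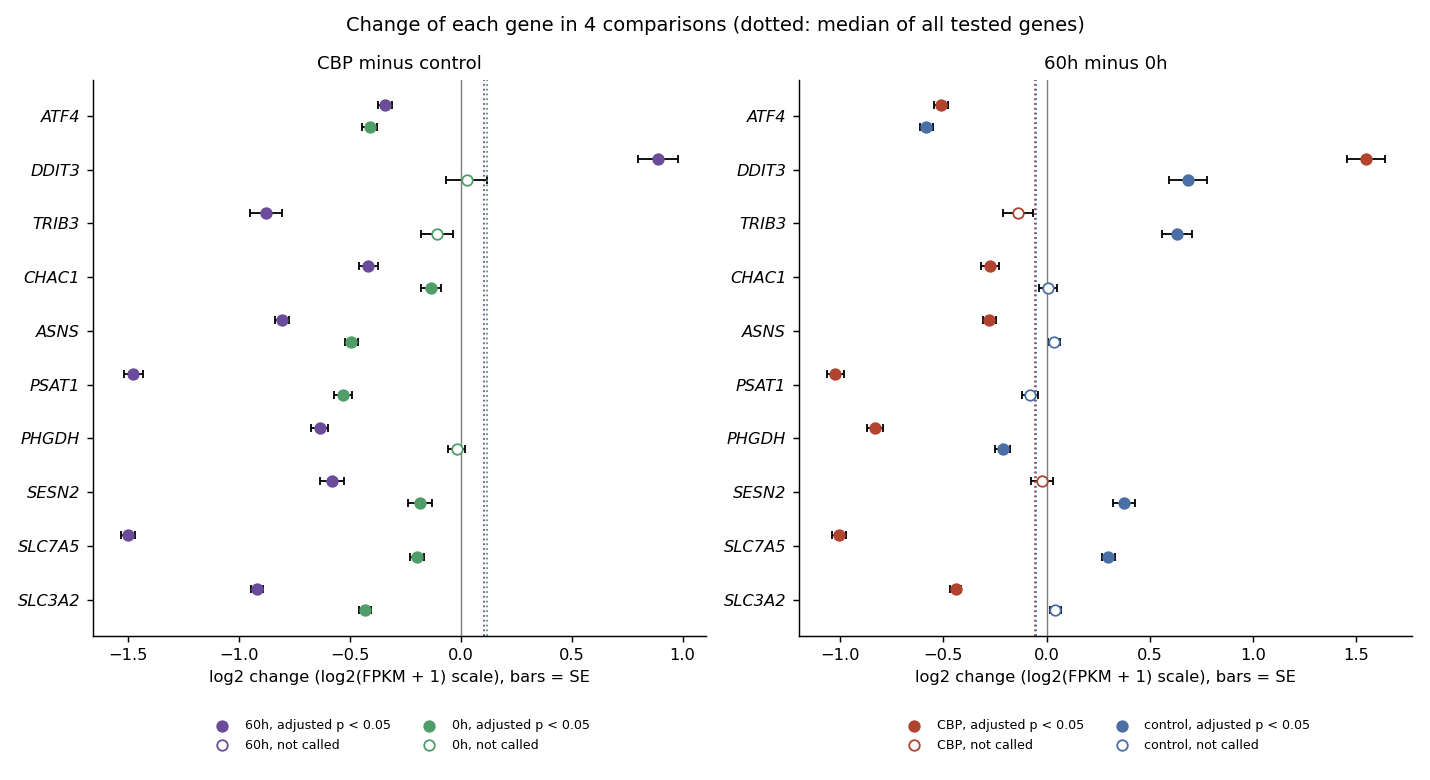
Log2 change of each gene (x axis, log2(FPKM + 1) scale, bars = SE) for CBP minus control at 60h and 0h (left) and for 60h minus 0h in CBP and control cells (right), with filled points at adjusted p under 0.05 and dotted lines at the median of all tested genes. SLC7A5 and PSAT1 lie farthest left for CBP minus control at 60h, and DDIT3 lies on the right in 3 of the 4 comparisons.

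ATF4 (ENSSSCG00000000084, chromosome 5, 8742964 to 8745752 in the Sscrofa11.1 build) had 68.3, 72.2 and 66.5 FPKM in CBP cells and 85.5, 87.9 and 89.8 FPKM in control cells at 60h. At 0h it had 101, 96.0 and 99.9 FPKM in CBP cells and 129, 132 and 134 FPKM in control cells. The CBP libraries lay below the control libraries at both times, with no overlap. The transcript fell by 0.34 on the log2 scale at 60h (SE 0.03, limma adjusted p = 1.78e-06), a 1.27-fold lower level, and by 0.41 at 0h (SE 0.03, limma adjusted p = 6.84e-07), a 1.33-fold lower level. The interaction was 0.07 with a 95% interval of -0.03 to 0.17 (limma adjusted p = 0.244). ATF4 also fell between the times, by 0.51 on the log2 scale in CBP cells (limma adjusted p = 3.64e-08) and by 0.58 in control cells (limma adjusted p = 1.77e-08). The length used to scale ATF4 was 5377 bp, more than the 2789 bp between start and end of the RefSeq gene. What the additional length holds was not tested. The RefSeq position was taken by symbol, and a reference table of gene names gives no symbol for this ID.

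DDIT3 (ENSSSCG00000044553, chromosome 5, 22785441 to 22789867), the CHOP factor that ATF4 raises under lasting stress and that pairs with C/EBP proteins, had 9.49, 8.16 and 8.78 FPKM in CBP cells and 4.56, 4.26 and 4.07 FPKM in control cells at 60h. The levels at 0h were 2.34, 2.13 and 2.60 FPKM in CBP cells and 2.83, 2.13 and 1.97 FPKM in control cells. The groups were apart at 60h and overlapped at 0h. DDIT3 was 2.05-fold higher in CBP cells at 60h, a log2 change of 0.89 (SE 0.09, limma adjusted p = 3.08e-06). At 0h the log2 change was 0.03, with a 95% interval of -0.18 to 0.23 (limma adjusted p = 0.823), and its sign turned under 3 other scalings. The interaction was 0.86 (SE 0.13, limma adjusted p = 0.000168). The gene rose with time in both arms, 3.74-fold in CBP cells (limma adjusted p = 1.56e-08) and 1.86-fold in control cells (limma adjusted p = 3.59e-05). These are the lowest levels of the 10 genes, resting on 287 to 328 reads per library in CBP cells and 139 to 157 in control cells at 60h, and on 70 to 101 reads per library at 0h.

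The position of DDIT3 limits its reading. It was taken by symbol, and the reference table of gene names gives no symbol for the ID reported above. Whether that position belongs to this ID was not tested. The RefSeq gene overlaps MARS, and with no strand setting given in the sources used here, reads of overlapping genes cannot be told apart. A further row of the table, ENSSSCG00000050998, carries the symbol DDIT3 in the reference table. It averaged 3.04 ± 0.08 FPKM in CBP cells and 1.64 ± 0.08 FPKM in control cells at 60h, and 0.97 ± 0.62 FPKM in CBP cells and 0.64 ± 0.20 FPKM in control cells at 0h (SD, n = 3 each). It rose by 0.62 on the log2 scale at 60h (SE 0.16, limma adjusted p = 0.00508), and at 0h its log2 change was 0.23 (SE 0.16, limma adjusted p = 0.252). With the reads of both rows summed, a choice made after seeing the data, the log2 changes were 0.89 at 60h (limma adjusted p = 4.85e-06) and 0.08 at 0h (limma adjusted p = 0.517).

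TRIB3 and CHAC1 are targets that answer strongly to stress. TRIB3 (ENSSSCG00000039862, chromosome 17, 34808273 to 34819592), a pseudokinase that binds ATF4 and damps it, had 16.5, 17.5 and 16.2 FPKM in CBP cells and 32.4, 31.9 and 30.7 FPKM in control cells at 60h. At 0h it had 19.6, 16.0 and 20.4 FPKM in CBP cells and 19.5, 21.4 and 19.4 FPKM in control cells. The groups were apart at 60h and overlapped at 0h. TRIB3 fell by 0.88 on the log2 scale at 60h (SE 0.07, limma adjusted p = 4.54e-07), a 1.89-fold lower level. At 0h its change was -0.11, with a 95% interval of -0.27 to 0.05 (limma adjusted p = 0.225); median-of-ratios scaling gave -0.24 (limma adjusted p = 0.0173). In control cells TRIB3 rose 1.58-fold between 0h and 60h (limma adjusted p = 1.05e-05), while the change in CBP cells was -0.14, with a 95% interval of -0.30 to 0.02 (limma adjusted p = 0.109). Without replicate 2 of the CBP cells at 0h, the lowest of that group, that change was -0.24 (limma adjusted p = 0.00108).

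CHAC1 (ENSSSCG00000038521, chromosome 1, 130360510 to 130363332), an enzyme that breaks down glutathione, had 35.5, 39.0 and 37.3 FPKM in CBP cells and 53.0, 49.0 and 48.2 FPKM in control cells at 60h. In proliferation, at 0h, it had 44.7, 44.8 and 46.4 FPKM in CBP cells and 47.6, 51.3 and 50.6 FPKM in control cells. The CBP libraries were lower at both times and did not overlap the controls, although the gap at 0h was narrow. The gene fell by 0.42 on the log2 scale at 60h (SE 0.04, limma adjusted p = 3.63e-06), or 1.34-fold, and by 0.13 at 0h (SE 0.04, limma adjusted p = 0.0193), or 1.1-fold. The call at 0h was lost without any of 4 libraries: CBP replicate 1 (limma adjusted p = 0.0564) or 2 (0.0536), or control replicate 2 (0.0745) or 3 (0.0595). In control cells its level at 60h differed from that at 0h by 0.01 on the log2 scale, with a 95% interval of -0.09 to 0.10 (limma adjusted p = 0.895), whereas in CBP cells it fell 1.22-fold with time (limma adjusted p = 0.00012).

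Among the enzymes of amino acid synthesis, PSAT1 had the highest level of the 10 genes in every library. PSAT1 (ENSSSCG00000005287, chromosome 1, 231142673 to 231172364) makes phosphoserine in the middle step of serine synthesis, and it had 112, 128 and 113 FPKM in CBP cells and 328, 327 and 332 FPKM in control cells at 60h. At 0h its libraries held 239, 239.8 and 241 FPKM in CBP cells and 339, 349.5 and 355 FPKM in control cells. All CBP libraries lay below all control libraries, with a wide gap at both times. The fall was 1.48 on the log2 scale at 60h (SE 0.04, limma adjusted p = 3.1e-11), or 2.79-fold, and 0.53 at 0h (SE 0.04, limma adjusted p = 4.65e-07), or 1.45-fold. PSAT1 fell 2.04-fold between 0h and 60h in CBP cells (limma adjusted p = 4.52e-10). In control cells its change with time was -0.08, with a 95% interval of -0.17 to 0.01 (limma adjusted p = 0.109); the sign turned under scaling by TPM (0.004) and by quantiles (0.04). The change passed as a fall of 0.08 in a fit of the compared groups alone (limma adjusted p = 0.019), without replicate 2 of the CBP cells at 60h (limma adjusted p = 0.00815) and with limma-voom on recovered reads (adjusted p = 0.0377).

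PHGDH (ENSSSCG00000006717, chromosome 4, 101445977 to 101478144), which catalyses the first step of the same pathway, had 73.2, 80.3 and 72.9 FPKM in CBP cells and 114, 119 and 120.0 FPKM in control cells at 60h. At 0h it had 137, 136 and 133 FPKM in CBP cells and 134, 136 and 141 FPKM in control cells. The groups were apart at 60h and overlapped at 0h, unlike those of PSAT1, which were apart at both times. PHGDH fell by 0.64 on the log2 scale at 60h (SE 0.04, limma adjusted p = 2.06e-08), a 1.56-fold lower level. At 0h its change was -0.02, with a 95% interval of -0.10 to 0.06 (limma adjusted p = 0.687); the scalings did not give 1 direction, with -0.15 by median of ratios (limma adjusted p = 0.0156) and 0.06 by quantiles (limma adjusted p = 0.162). With time it fell in both arms, 1.79-fold in CBP cells (limma adjusted p = 1.32e-09) and 1.16-fold in control cells (limma adjusted p = 0.000343).

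ASNS (ENSSSCG00000015340, chromosome 9, 77318341 to 77336290), which makes asparagine from aspartate and is a classic target of ATF4, had 83.0, 82.1 and 79.2 FPKM in CBP cells and 142, 144 and 144 FPKM in control cells at 60h. At 0h the gene had 98.7, 102 and 96.5 FPKM in CBP cells and 134, 143 and 143 FPKM in control cells. CBP libraries were below controls at both times, without overlap. The fall was 0.81 on the log2 scale at 60h (SE 0.03, limma adjusted p = 4.68e-10), or 1.76-fold, and 0.49 at 0h (SE 0.03, limma adjusted p = 8.43e-08), or 1.41-fold. Between 0h and 60h ASNS fell 1.22-fold in CBP cells (limma adjusted p = 5.83e-06). In control cells the change was 0.04, with a 95% interval of -0.03 to 0.10 (limma adjusted p = 0.326); it passed as a rise under 3 other scalings, at 0.10 to 0.12.

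SLC7A5 and SLC3A2 encode the light and heavy chains of LAT1, the exchanger that brings leucine and other large neutral amino acids into the cell. SLC7A5 (ENSSSCG00000032996, chromosome 6, 1545940 to 1574298) had 16.1, 15.8 and 16.7 FPKM in CBP cells and 47.4, 47.6 and 48.0 FPKM in control cells at 60h. At 0h the transcript had 34.1, 33.2 and 33.2 FPKM in CBP cells and 36.9, 39.7 and 39.0 FPKM in control cells. The groups were apart at both times, by little at 0h and by far more at 60h. The fall was 1.50 on the log2 scale at 60h (SE 0.03, limma adjusted p = 3.6e-12), or 2.95-fold, and 0.20 at 0h (SE 0.03, limma adjusted p = 0.000197), or 1.15-fold. With time SLC7A5 moved in opposite directions: it fell 2.07-fold in CBP cells (limma adjusted p = 5.28e-11) and rose 1.24-fold in control cells (limma adjusted p = 4.37e-06). The interaction, -1.31 (SE 0.05, limma adjusted p = 8.51e-10), was the largest of the 10. The RefSeq table lists the pig gene as a long non-coding RNA although SLC7A5 encodes a protein in other mammals, and the gene is kept here under its symbol.

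SLC3A2 (ENSSSCG00000022404, chromosome 2, 8892071 to 8919070) had 50.5, 53.1 and 51.1 FPKM in CBP cells and 99.9, 98.5 and 96.6 FPKM in control cells at 60h. At 0h the values were 71.3, 71.4 and 68.4 FPKM in CBP cells and 96.6, 95.2 and 94.4 FPKM in control cells. CBP libraries lay below controls at both times with no overlap. The heavy chain fell by 0.92 on the log2 scale at 60h (SE 0.03, limma adjusted p = 4.87e-11), or 1.91-fold, and by 0.43 at 0h (SE 0.03, limma adjusted p = 7.35e-08), or 1.36-fold. In CBP cells it fell 1.36-fold with time (limma adjusted p = 2.09e-08). In control cells the change was 0.04, with a 95% interval of -0.02 to 0.10 (limma adjusted p = 0.18), and it passed as a rise under 3 other scalings, at 0.11 to 0.14. At 0h the heavy chain had the larger log2 change of the pair and at 60h the light chain had it; the difference between the genes was not tested.

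SESN2 (ENSSSCG00000029438, chromosome 6, 85321982 to 85348044) encodes a leucine sensor that holds back the growth kinase complex mTORC1. It had 14.4, 15.2 and 14.2 FPKM in CBP cells and 22.2, 23.5 and 21.2 FPKM in control cells at 60h. At 0h it had 14.6, 14.2 and 15.7 FPKM in CBP cells and 15.8, 17.6 and 17.6 FPKM in control cells. The groups did not overlap at either time, and at 0h the highest CBP library lay just under the lowest control library. SESN2 fell by 0.58 on the log2 scale at 60h (SE 0.05, limma adjusted p = 1.21e-06), or 1.53-fold, and by 0.19 at 0h (SE 0.05, limma adjusted p = 0.0107), or 1.15-fold. It rose 1.31-fold with time in control cells (limma adjusted p = 6.77e-05). In CBP cells the change with time was -0.02, with a 95% interval of -0.14 to 0.10 (limma adjusted p = 0.728), and scaling by the median of ratios, TPM or quantiles turned its sign.

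Levels per length kept much the same order. PSAT1 ranked first, CHAC1 sixth, SESN2 ninth and DDIT3 last in all 12 libraries. ASNS, PHGDH, ATF4 and SLC3A2 exchanged the ranks 2 to 5, and SLC7A5 and TRIB3 the ranks 7 and 8. In CBP cells at 60h, TRIB3 (16.8 ± 0.65 FPKM) and SLC7A5 (16.2 ± 0.46 FPKM; SD, n = 3 each) lay within their spread of each other. In control cells at 60h, SLC7A5 (47.7 ± 0.28 FPKM) stood close to CHAC1 (50.1 ± 2.57 FPKM), and at 0h PHGDH (137 ± 3.95 FPKM) close to ASNS (139.8 ± 5.33 FPKM). In CBP cells at 0h, ASNS (99.0 ± 2.57 FPKM) and ATF4 (98.8 ± 2.51 FPKM) did not differ beyond their spread.

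The counts of the lists that follow stand beside 44.7% of all tested genes that rose and 27% that fell at 60h, and 44.2% and 18.1% at 0h. Partners, feedback genes and other targets of ATF4 formed a further list of 30 genes, of which 28 were tested. In CBP against control cells at 60h 11 rose and 16 fell, with a median log2 change of -0.22, and 7 rose and 17 fell under median-of-ratios scaling. At 0h 5 rose and 15 fell, with a median of -0.17. GDF15, a stress-induced secreted factor, fell 6.97-fold at 60h, to 5.97 ± 0.18 FPKM in CBP cells against 41.6 ± 1.89 FPKM in control cells (limma adjusted p = 5.02e-12), and rose 1.34-fold at 0h, to 33.1 ± 3.16 FPKM against 24.7 ± 0.84 FPKM. STC2, a secreted glycoprotein, fell 4.04-fold at 60h, to 7.53 ± 0.66 FPKM in CBP cells against 30.4 ± 1.63 FPKM in control cells (limma adjusted p = 2.82e-10), and 1.83-fold at 0h. TXNIP, which binds thioredoxin, rose 5.02-fold at 60h (limma adjusted p = 4.93e-09). DDIT4, an inhibitor of mTORC1 that rises under stress, rose 1.75-fold at 0h, to 54.7 ± 1.62 FPKM in CBP cells against 31.1 ± 2.66 FPKM in control cells (limma adjusted p = 7.84e-08). NUPR1, a small stress-induced chromatin protein, had 378 ± 39.3 FPKM in CBP cells and 113 ± 4.58 FPKM in control cells at 60h, a 3.36-fold rise (limma adjusted p = 6.11e-10), and fell 1.79-fold at 0h. Between 0h and 60h, 14 genes of this list rose and 11 fell in CBP cells, and 23 rose and 1 fell in control cells. Of all tested genes, 31.3% rose and 41.5% fell with time in CBP cells, and 28.8% and 38% in control cells. CEBPD, a transcription factor of the C/EBP family, rose by 2.38 on the log2 scale in CBP cells and by 1.15 in control cells.

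Serine, glycine and one-carbon metabolism was followed in 16 tested genes of a list of 20. At 60h 5 rose and 6 fell (2 and 9 under median-of-ratios scaling), and at 0h 5 rose and 4 fell (5 and 7 under that scaling), with medians of -0.07 and -0.02. PSPH, which completes serine synthesis after PSAT1, fell 2.35-fold at 60h, to 8.68 ± 0.41 FPKM in CBP cells against 20.4 ± 0.66 FPKM in control cells (limma adjusted p = 3.34e-10). At 0h it stood at 14.7 ± 0.21 FPKM in CBP cells and 15.4 ± 0.75 FPKM in control cells (limma adjusted p = 0.243). The mitochondrial folate enzymes MTHFD2, ALDH1L2 and MTHFD1L fell 2.04-fold, 2.16-fold and 1.85-fold at 60h, and at 0h MTHFD2 fell 1.61-fold. The thymidylate synthase gene TYMS rose 1.36-fold at 0h, while SFXN3 and the serine hydroxymethyltransferase gene SHMT2 fell 1.33-fold and 1.28-fold. With time, 2 genes of the list rose and 13 fell in CBP cells, beside 31.3% and 41.5% of all tested genes. In control cells 5 rose and 11 fell with time, beside 28.8% and 38% of all tested genes.

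The list of other amino acid synthesis genes, with 19 of 23 tested, showed 9 rises and 6 falls at 60h and 10 rises and 7 falls at 0h (6 and 8 under median-of-ratios scaling), with medians of 0.18 at both times. CTH and CBS, the enzymes that turn homocysteine into cysteine, fell 3.85-fold (limma adjusted p = 6.16e-13) and 3.89-fold (limma adjusted p = 9.29e-10) at 60h. CTH, which is also on the list of further ATF4 targets, had 10.6 ± 0.32 FPKM in CBP cells and 40.9 ± 0.84 FPKM in control cells at 60h, and 31.8 ± 0.71 FPKM in CBP cells and 31.6 ± 0.60 FPKM in control cells at 0h. GLUL, which makes glutamine, rose 2.82-fold at 60h, to 109.0 ± 4.33 FPKM in CBP cells against 38.7 ± 2.31 FPKM in control cells, and BCAT2, which transfers the amino group of branched-chain amino acids, rose 1.86-fold. At 0h ODC1 and OAT, enzymes of ornithine metabolism, rose 1.79-fold and 1.62-fold, and the alanine transaminase gene GPT rose 1.41-fold.

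**Figure D3:**
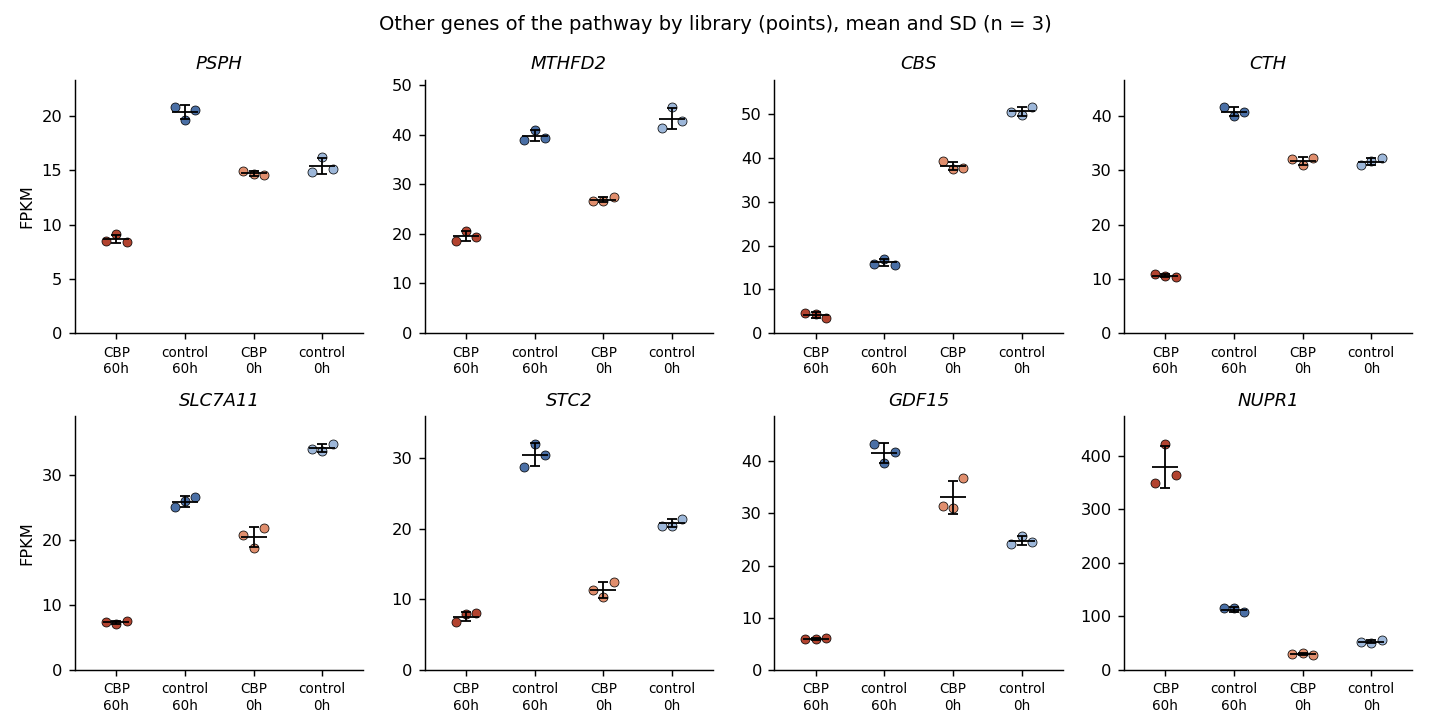
FPKM by library (points) with group mean and SD (n = 3) for 8 further genes of serine, one-carbon and cysteine metabolism, cystine uptake and stress response (y axis from 0, own scale for each gene). At 60h the CBP libraries lie below the control libraries for 7 genes and above them for NUPR1. GDF15 is higher in CBP than in control libraries at 0h. The 8 genes were picked from the lists without a set rule, so the share of falls among them is not a result. At 60h, 11 genes rose and 16 fell among further ATF4 targets, and 5 and 6 among serine and one-carbon genes. Among other synthesis genes 9 rose and 6 fell, and among other transporters 7 and 7.

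Of 25 other amino acid transporters, 16 were tested, and 7 rose and 7 fell at 60h (4 and 7 under median-of-ratios scaling), while 5 rose and 4 fell at 0h (4 and 5 under that scaling). SLC7A11, the cystine importer, which is on the list of further ATF4 targets too, fell 3.54-fold at 60h, to 7.33 ± 0.26 FPKM in CBP cells against 25.9 ± 0.83 FPKM in control cells (limma adjusted p = 3.94e-11), and 1.67-fold at 0h. The glycine transporter SLC6A9 and the glutamine transporter SLC1A5 fell 2.25-fold and 1.72-fold at 60h, and SLC43A2, a carrier of large neutral amino acids like LAT1, rose 2.44-fold. At 0h SLC1A4, SLC7A1 and SLC6A9 fell 1.52-fold, 1.27-fold and 1.26-fold.

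Upstream, the list of eIF2 kinases, eIF2 and eIF2B held 15 tested genes, with 4 rises and 7 falls at 60h and 8 rises and 1 fall at 0h (6 and 3 under median-of-ratios scaling). The kinase gene EIF2AK2, which encodes PKR, fell 1.79-fold at 60h and rose 1.6-fold at 0h. EIF2AK4, which encodes the amino acid sensor GCN2, rose 1.55-fold at 0h, and EIF2AK1, which encodes the heme-regulated kinase HRI, rose 1.61-fold at 60h and 1.33-fold at 0h. EIF2S2, a subunit of eIF2, and the initiation factor gene EIF2A fell 1.43-fold and 1.29-fold at 60h, and GCN1, which activates GCN2, rose 1.23-fold at 0h. For sestrins and amino acid sensing by mTORC1, with 27 tested genes, 15 rose and 4 fell at 60h (12 and 8 under median-of-ratios scaling) and 13 rose and 2 fell at 0h (8 and 7). SESN3, a sestrin like SESN2, rose 9.42-fold at 60h, to 9.79 ± 0.79 FPKM in CBP cells against 1.04 ± 0.05 FPKM in control cells, and CASTOR2, a homologue of the arginine sensor CASTOR1, rose 1.61-fold at 60h and 1.35-fold at 0h. LAMTOR1, which anchors mTORC1 signalling at the lysosome, rose 1.52-fold at 60h and 1.28-fold at 0h, and TSC1, which restrains mTORC1, rose 1.43-fold at 60h. At 0h the mTOR subunit gene MLST8 rose 1.46-fold and the GTPase gene RRAGD fell 1.38-fold.

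**Figure D4:**
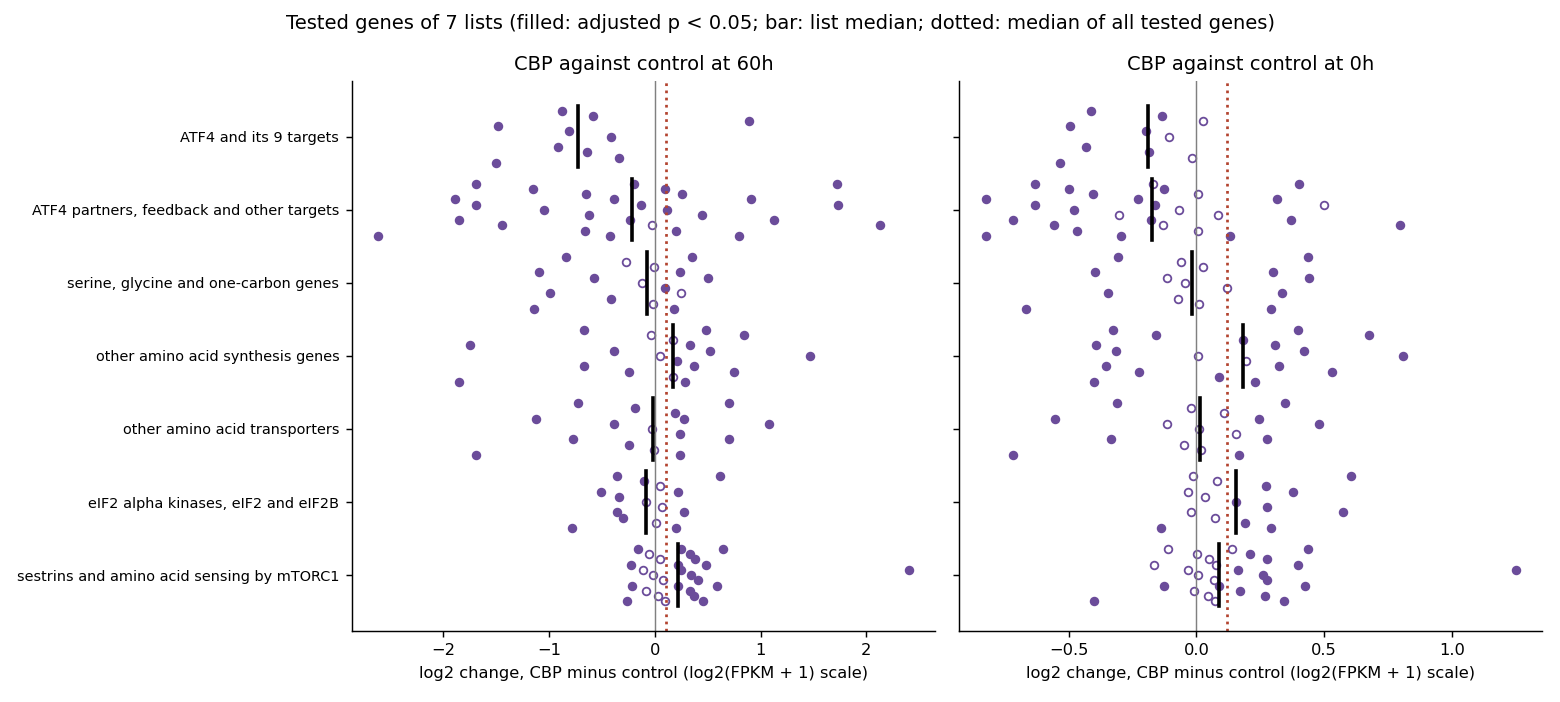
Log2 change of CBP minus control (x axis, log2(FPKM + 1) scale) at 60h (left) and 0h (right) for the tested genes of 7 lists, with filled points at adjusted p under 0.05, black bars at list medians and dotted lines at the median of all tested genes. The median of ATF4 and its 9 targets lies at -0.72 at 60h and -0.19 at 0h, left of the dotted line in both panels.

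Genes with a pattern most like that of a member were sought among 7069 genes, by the root mean square difference of the 4 centred group means of log2(FPKM + 1). For DDIT3 the nearest was CREB3L2, at 0.04, with 34.7 FPKM in CBP and 18.8 FPKM in control cells at 60h and 11.3 FPKM in CBP and 10.5 FPKM in control cells at 0h; KLHL24 and SLC40A1 followed at 0.08 and 0.09. For ASNS the nearest were C8orf58, PYCR1 and C1QTNF1, at 0.05, 0.06 and 0.07. PYCR1, which completes proline synthesis, had 60.1 FPKM in CBP and 95.8 FPKM in control cells at 60h, and 72.3 FPKM in CBP and 95.2 FPKM in control cells at 0h. For ATF4 the nearest were CNRIP1, NRBP2 and PEA15, at 0.04, 0.04 and 0.05.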

How the data were processed

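The libraries were built from total RNA with a VAHTS Universal V8 kit, per the labels' protocols. The submitters' processing notes list Trimmomatic, featureCounts and the build Sscrofa11.1, without versions. Which aligner, annotation release and strand setting were used is not given in the sources used here. The authors deposited FPKM values for 31908 genes, 1 column per library, with replicates not pooled. Depth was recovered from the steps that 1 read makes in FPKM: all 22521 genes above 0 gave whole reads within 0.001. Positions came from the RefSeq table of Sscrofa11.1, matched by symbol and not by gene ID. Further symbols came from a separate reference table of gene names, matched by gene ID. That table gives no symbol for the IDs under which ATF4 and DDIT3 are reported, so their symbols are those deposited with the FPKM values.

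Genes with 1 FPKM or more in at least 3 of 12 libraries were kept. The model of log2(FPKM + 1) had 4 group means and trended empirical Bayes (limma 3.58.1, R 4.3.3). Tests were two-sided, with Benjamini-Hochberg adjustment within each of 5 comparisons. They were also run on simulated data with known changes, independent noise and far fewer changed genes than were called here. That run cannot tell how the tests behave on these data, and its outcome is not given. Of each other list, up to 4 called genes with the largest change and a mean of 5 FPKM or more in the higher group are named per comparison, with their values in other comparisons where useful. For ATF4, DDIT3 and ASNS the 3 most like genes are named. The members and lists were chosen with earlier results of these data known. ADM2, GCSH, PRODH, SLC7A6, IMPACT, EIF2S3, SAMTOR, SEH1L and NPRL2 had no match by symbol and were not analysed here. Alternatives were another pseudocount, no filter, 3 scalings, other fits, recovered reads with voom, and leaving out each library. Some genes that the rule takes are not reported here.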

Additional observations from a re-analysis of the deposited data

Results flagged for a closer look

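The effect of the CBP arm at 60h differed from that at 0h in 9 of the 10 ATF4 genes, by limma's test of the difference on the log2(FPKM + 1) scale. Of all tested genes 24.3% were higher and 26.7% lower in that test. A further 23 genes of the lists are given because they passed the same test with the largest values, so their passing is not a result. A positive value means that CBP minus control was larger at 60h than at 0h. Among ATF4 and its targets it was 0.86 for DDIT3, -0.77 for TRIB3, -0.28 for CHAC1, -0.31 for ASNS, -0.94 for PSAT1, -0.62 for PHGDH, -0.40 for SESN2, -1.31 for SLC7A5 and -0.48 for SLC3A2. Further stress and target genes gave -3.01 for GDF15, 2.56 for NUPR1, 2.54 for TXNIP and -1.86 for CTH. Serine and one-carbon genes gave -1.08 for PSPH, -0.85 for TYMS, -0.78 for ALDH1L2 and -0.77 for MTHFD1L. Other synthesis genes gave -1.34 for CBS, 1.07 for GLUL and 0.56 for BCAT1. Transporters gave -0.98 for SLC7A11, -0.81 for SLC6A9, 0.80 for SLC43A2 and -0.66 for SLC1A5. Initiation factors and kinases gave -1.38 for EIF2AK2, -0.48 for EIF2S2, -0.42 for EIF2B1 and -0.39 for EIF2S1. Amino acid sensing genes gave 1.15 for SESN3, 0.48 for TSC1, 0.45 for SESN1 and -0.39 for MLST8. The cause of these differences was not tested.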

How the results depend on the processing

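The number of ATF4 genes called was within 1.5 times its reported value in all 109 refits, at 6 to 10 of 10. Leaving out 1 library at a time gave 10 at 60h, 6 to 7 at 0h, 8 to 9 with time in CBP cells, 6 to 7 with time in control cells and 9 in the interaction. Of 871 refits of the 40 called changes, 0 reversed and 4 lost the call, all of CHAC1 at 0h, whose values without 1 library ran from -0.17 to -0.11. Reversals fell on changes that had not passed. For DDIT3 at 0h the log2 change was -0.067 under median-of-ratios scaling, -0.00017 under TPM scaling and -0.042 under quantile scaling, and -0.048 to 0.135 without 1 library. PHGDH at 0h gave 0.063 under quantile scaling, and -0.036 to 0.004 without 1 library. SESN2 with time in CBP cells gave 0.043, 0.09 and 0.022 under those 3 scalings, and -0.051 to 0.018 without 1 library. With time in control cells, PSAT1 gave 0.004 under TPM and 0.042 under quantile scaling, and CHAC1 -0.033 to 0.034 without 1 library. The interaction of ATF4 was -0.008 under quantile scaling. The causes were not tested. Replicate numbers showed no visible pairing of the samples: 18 same-numbered pairs had correlations of -0.09 to 0.08. The labels do not say whether same-numbered libraries belong together, and these correlations cannot settle it. With replicate number as a block, 10, 7, 8, 6 and 9 of the 10 genes were called at 60h, at 0h, with time in CBP cells, with time in control cells and in the interaction, as without it; of the other transporters 6 instead of 10 passed in the interaction. Depth limits DDIT3, at 70 to 328 reads per library, and the search of promoters for motifs was not run.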

Other observations

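Genes around the ATF4 program also changed between 0h and 60h within each arm, by the same limma test. The counts stand beside 31.3% of all tested genes that rose and 41.5% that fell in CBP cells, and 28.8% and 38% in control cells. Of the 19 other amino acid synthesis genes, 3 rose and 14 fell in CBP cells, and 1 rose and 14 fell in control cells (3 and 13 under TPM scaling). CBS, the enzyme that commits homocysteine to cysteine, fell by 2.93 on the log2 scale in CBP cells and by 1.59 in control cells. PYCR3 (proline synthesis) fell by 0.94 in CBP cells and by 0.89 in control cells, and the mitochondrial aspartate transaminase GOT2 fell by 0.94 in CBP cells and by 0.80 in control cells. CTH fell by 1.50 in CBP cells, and GLUL fell by 0.48 in control cells. Among serine and one-carbon genes TYMS fell by 2.12 in CBP cells and by 1.27 in control cells. PSPH, SFXN1 and SHMT2 fell by 0.70, 0.61 and 0.58 in CBP cells. In control cells SFXN3 fell by 0.54 and ALDH1L2 rose by 0.59.

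Of the 16 other transporters, 7 rose and 4 fell in CBP cells, and 7 rose and 5 fell in control cells. In CBP cells SLC7A11 and SLC7A1 fell by 1.36 and 0.65, and SLC43A2 and SLC38A2 rose by 1.04 and 0.64. In control cells SLC6A9, SLC1A5 and SLC36A1 rose by 1.11, 0.75 and 0.60, and SLC38A1 fell by 0.45. Of the 15 genes of eIF2 and its kinases, 2 rose and 10 fell in CBP cells (3 and 8 under TPM scaling), and 4 rose and 6 fell in control cells. EIF2AK3, which encodes the endoplasmic reticulum kinase PERK, rose by 0.86 in CBP cells and by 0.64 in control cells, and EIF2B2 fell by 0.78 in CBP cells and by 0.58 in control cells. EIF2S2 and EIF2A fell by 0.54 and 0.53 in CBP cells, and EIF2AK2 and DNAJC3 rose by 1.37 and 0.67 in control cells.

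Of the 27 sestrin and mTORC1 sensing genes, 10 rose and 9 fell in CBP cells (12 and 7 under TPM scaling), and 11 rose and 9 fell in control cells. RRAGD fell by 0.86 in CBP cells and by 1.18 in control cells, and SESN1 rose by 0.91 in CBP cells and by 0.46 in control cells. SESN3 and TSC1 rose by 0.97 and 0.75 in CBP cells. In control cells RRAGB fell by 0.56 and CASTOR2 rose by 0.45. NUPR1 rose 12.9-fold in CBP cells, to 378 ± 39.3 FPKM at 60h against 29.4 ± 1.97 FPKM at 0h, and by 1.08 on the log2 scale in control cells. In CBP cells TXNIP rose by 2.96 and GDF15 fell by 2.29, and in control cells PPP1R15A and GDF15 rose by 0.78 and 0.73.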
